A study of Mus musculus with 3 samples.

Results

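Expression of 9 myelin genes, *Mbp*, *Mog*, *Mag*, *Mobp*, *Cnp*, *Aspa*, *Ermn*, *Cldn11* and *Opalin*, was examined in single nuclei of the mouse prefrontal cortex (PFC). They were taken from a list of the oligodendrocyte's myelin program, are 9 of the 32285 genes in the count matrices, and all 9 had counts in every library. Single nucleus RNA sequencing (snRNA-Seq) had been performed on 1 library per group, so the groups have no replicates. The C57BL/6J library was made from the pooled PFC of 5 wild-type mice and the *Nav1* KO library from the pooled PFC of 4 mice, which carry a homozygous deletion with an early stop in the first exon of *Nav1*, a microtubule-associated protein gene, on the C57BL/6J background. The third library was made from the inbred strain BTBR T<+> Itpr3<tf>/J, which carries the Itpr3<tf> allele and is used as a model of autism-like behavior; how many of its mice were pooled is not given in the sources used here. All mice were males of 6 to 8 weeks, and no treatment is given for any of them. For the C57BL/6J and *Nav1* KO libraries, nuclei were sorted so that more were positive than negative for NeuN, a neuronal nuclear protein, and this sort sets the proportions of neurons and glia. The labels name the cell type as neurons, but markers of glia were present in all 3 libraries.

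Myelin is the multilayered membrane that oligodendrocytes wrap around axons in the central nervous system. Its proteins have separate roles. Some compact the membrane, some lie on the outer surface or face the axon, and others seal the layers, shape the cytoskeleton or supply lipid synthesis. Ensheathing glia of the olfactory nerve wrap bundles of unmyelinated axons, and neurons make no myelin, so that myelin transcripts recovered with a neuronal nucleus are usually read as free RNA from the tissue homogenate. *Mbp* is an exception, since a set of its transcripts, called golli, is known in neurons, and the counts used here pool isoforms.

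The 9 genes lie on 8 chromosomes, and only *Cnp* and *Aspa* share one. In the GENCODE vM21 annotation of mm10, *Mbp* spans 110492 bases of chromosome 18 (82475146–82585637, plus strand) and has 14 protein-coding transcripts, so that its 3′ counts pool several isoforms. The shortest, *Ermn*, spans 7752 bases of chromosome 2 (58045113–58052864, minus strand) and has 1 protein-coding transcript.

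Nuclei with at least 200 detected genes and under 10% mitochondrial counts were kept, which left 14630 C57BL/6J, 14056 *Nav1* KO and 14777 BTBR nuclei with 38704723, 50965774 and 48939692 counts (unique molecular identifiers, UMIs). The median nucleus had 2074 UMIs in the C57BL/6J, 2754 in the *Nav1* KO and 2510 in the BTBR library. Any pair of libraries shared between 61 and 71 cell barcodes. *Nav1* was present at 345 CPM (counts per 1e6 counts) in the C57BL/6J, 264 CPM in the *Nav1* KO and 146 CPM in the BTBR library over all kept nuclei. The 3′ tags lie outside the deleted part of *Nav1*, so these levels do not check the knockout label. Levels below are the counts of all nuclei of a class in a library scaled to the total of those nuclei (CPM), and values in parentheses are 95% exact intervals that cover counting error only. They hold neither the variation between mice nor that between libraries, and no test between the groups was possible.

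Nuclei were clustered without the 9 myelin genes, and classes were named from other markers. The oligodendrocyte-like class was a single cluster of 812 nuclei with *Hapln2*, *C030029H02Rik*, *Anln* and *Mal* among its leading genes, and all 13 listed oligodendrocyte markers other than the 9 genes were detected in it in each library. It held 360 C57BL/6J nuclei (2.46% of kept nuclei, 2.22–2.72), 230 *Nav1* KO nuclei (1.64%, 1.43–1.86) and 222 BTBR nuclei (1.5%, 1.31–1.71). Its nuclei were shallower than neurons, with a median of 1119, 1740.5 and 1407.5 UMIs in the C57BL/6J, *Nav1* KO and BTBR libraries. The ensheathing glia-like class was led by *Fabp7*, *Prss56* and *Apod*, and held 519 nuclei. Only 24 of these were from the C57BL/6J library (0.164%), while 398 were from the *Nav1* KO (2.83%) and 97 from the BTBR library (0.656%). Excitatory and inhibitory neurons made up 28737 nuclei, 9499 C57BL/6J, 9642 *Nav1* KO and 9596 BTBR, with medians of 2482 to 3107.5 UMIs. Neuron clusters were called excitatory where glutamatergic markers exceeded GABAergic ones. Cluster 3 (2963 nuclei, a median of 6126 UMIs) was called so, but *Mhrt* and *Rgs9* led it as they led inhibitory cluster 9. Of its nuclei, 20.7% were among the highest doublet scores. Excitatory cluster 14 was led by *Eomes* and *Cdhr1*, listed markers of olfactory bulb mitral or tufted neurons. A cluster of 1808 nuclei led by *Sst* and a cluster of 5046 nuclei led by ribosomal and mitochondrial genes were kept out of the neuron class. The *Sst* cluster was neuronal, with 405 CPM of *Gad1* and *Gad2*. It was left out by the naming rule, because a leading gene was on the ensheathing glia list and none on a neuron list.

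Because the 9 genes shared one expression pattern across clusters, the sequence at their start sites was read from RefSeq for GRCm38.p6, from 250 bases before to 50 bases after the start. Windows were found for 8 of the genes. Of these, 4 held CTGGNAC, letters at the core of the site described for the oligodendrocyte factor Myrf, on either strand (*Mog*, *Mag*, *Cnp* and *Opalin*), as did 19.3% of all 32851 windows in the table. ACAAAG, a SOX-type hexamer, was in the windows of *Mag*, *Mobp*, *Cnp* and *Opalin*, and in 18.7% of all windows, and the related ACAATG was in that of *Ermn* and in 12.6% of all windows. The windows of *Aspa* and *Cldn11* held none of the 3. The *Aspa* window lies inside the gene as annotated in GENCODE, whose 5′ end is at base 73329596 of chromosome 11, so it covers an internal start site. The 3 searched motifs do not overlap in these windows. A match of letters is a description of the window and was not tied to binding here. The 4 windows with CTGGNAC are shown with those of *Mobp*, which held 6 copies of ACAAAG on the minus strand of the window, and of *Aspa* and *Cldn11*, the genes whose levels departed most from the shared pattern. Capitals mark the motif matches, and each sequence reads 5′ to 3′ along its gene.
Mag (chr7:30914873-30915172, minus strand): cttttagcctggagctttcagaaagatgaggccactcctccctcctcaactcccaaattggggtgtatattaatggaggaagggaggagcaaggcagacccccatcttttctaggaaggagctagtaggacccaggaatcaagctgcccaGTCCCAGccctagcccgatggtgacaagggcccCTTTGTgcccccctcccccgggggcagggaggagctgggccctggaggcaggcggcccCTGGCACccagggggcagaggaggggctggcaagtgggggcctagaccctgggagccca
Mog (chr17:37023349-37023648, minus strand): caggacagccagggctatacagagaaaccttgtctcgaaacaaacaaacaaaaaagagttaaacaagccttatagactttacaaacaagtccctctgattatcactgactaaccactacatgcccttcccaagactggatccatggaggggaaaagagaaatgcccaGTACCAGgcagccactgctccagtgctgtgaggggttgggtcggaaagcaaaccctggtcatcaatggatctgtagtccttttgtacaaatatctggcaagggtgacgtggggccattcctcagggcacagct
Cnp (chr11:100574689-100574988, plus strand): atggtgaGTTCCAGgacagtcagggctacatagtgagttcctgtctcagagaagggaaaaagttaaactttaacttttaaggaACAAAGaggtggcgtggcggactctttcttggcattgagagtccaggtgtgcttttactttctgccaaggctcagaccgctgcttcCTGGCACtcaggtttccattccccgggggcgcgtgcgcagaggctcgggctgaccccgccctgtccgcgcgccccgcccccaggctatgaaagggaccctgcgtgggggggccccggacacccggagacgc
Opalin (chr19:41077064-41077363, minus strand): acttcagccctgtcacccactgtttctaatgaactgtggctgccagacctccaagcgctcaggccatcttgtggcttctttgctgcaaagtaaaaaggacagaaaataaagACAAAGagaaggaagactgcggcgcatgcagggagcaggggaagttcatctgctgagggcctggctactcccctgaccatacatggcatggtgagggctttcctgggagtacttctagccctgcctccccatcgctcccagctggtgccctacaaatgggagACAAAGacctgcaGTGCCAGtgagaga
Mobp (chr9:120149492-120149791, plus strand): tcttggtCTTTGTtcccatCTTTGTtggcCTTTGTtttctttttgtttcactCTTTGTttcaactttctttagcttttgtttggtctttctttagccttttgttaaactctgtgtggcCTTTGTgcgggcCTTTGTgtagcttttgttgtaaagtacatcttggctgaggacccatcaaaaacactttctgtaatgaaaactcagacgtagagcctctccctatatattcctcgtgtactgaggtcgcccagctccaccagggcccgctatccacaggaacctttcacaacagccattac
Aspa (chr11:73324588-73324887, minus strand): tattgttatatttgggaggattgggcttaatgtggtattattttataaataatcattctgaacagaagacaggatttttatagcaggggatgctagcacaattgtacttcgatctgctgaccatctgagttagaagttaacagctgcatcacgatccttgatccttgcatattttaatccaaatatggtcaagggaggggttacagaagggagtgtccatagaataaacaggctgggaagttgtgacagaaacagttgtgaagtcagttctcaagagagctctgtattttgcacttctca
Cldn11 (chr3:31149670-31149969, plus strand): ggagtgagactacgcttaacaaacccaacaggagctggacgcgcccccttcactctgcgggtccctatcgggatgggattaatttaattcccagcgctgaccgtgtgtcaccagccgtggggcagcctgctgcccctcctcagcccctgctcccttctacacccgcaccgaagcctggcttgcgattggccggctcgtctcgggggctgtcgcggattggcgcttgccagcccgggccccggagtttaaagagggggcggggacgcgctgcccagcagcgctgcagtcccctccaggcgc

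In oligodendrocyte-like nuclei, the 9 genes summed to 4634 CPM (4473–4799) in the C57BL/6J, 5089.9 CPM (4904–5281) in the *Nav1* KO and 5651 CPM (5436–5873) in the BTBR library. This order was that of *Mbp*. Without it, the other 8 genes summed to 2335 CPM in the C57BL/6J, 2323 CPM in the *Nav1* KO and 2067 CPM in the BTBR library, a ratio to C57BL/6J of 0.995 (0.923–1.07) for the *Nav1* KO and of 0.885 (0.816–0.96) for the BTBR library. The 13 other oligodendrocyte markers summed to 7356, 7459 and 6532 CPM in the same nuclei, in the order C57BL/6J, *Nav1* KO and BTBR.

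Among the genes of compact myelin, *Mbp*, whose basic protein holds the cytoplasmic faces of the membrane together, had 2298 CPM (2185–2416) in the C57BL/6J, 2767 CPM (2631–2909) in the *Nav1* KO and 3584 CPM (3413–3762) in the BTBR library. The 3 intervals do not overlap, and the BTBR library was highest. The ratio to C57BL/6J was 1.20 (1.12–1.29) in the *Nav1* KO and 1.56 (1.45–1.67) in the BTBR library. *Mobp*, which encodes a second basic protein of compact myelin, had the opposite order, with 374 CPM (329–423), 333 CPM (287–384) and 257 CPM (213–308) in the C57BL/6J, *Nav1* KO and BTBR libraries. Its BTBR level was 0.688 (0.548–0.86) of that in C57BL/6J, and its *Nav1* KO level was 0.890 (0.732–1.08).

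The genes for proteins at the surface of the sheath or facing the axon did not differ between libraries beyond counting error. *Mag*, an immunoglobulin-family protein at the contact between myelin and axon, had 739 CPM (675–807) in the C57BL/6J, 766 CPM (695–843) in the *Nav1* KO and 698 CPM (623–778) in the BTBR library. *Mog*, an immunoglobulin-family protein of the outermost layer, had 162 CPM (133–195), 176 CPM (143–215) and 177 CPM (140–219). *Opalin*, a transmembrane protein of oligodendrocytes, had 142 CPM (115–174), 131 CPM (103–165) and 109 CPM (80.9–144). All 3 genes had overlapping intervals in the 3 libraries, and their ratios to C57BL/6J had intervals that include 1, down to 0.533 and up to 1.47 over both comparisons.

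*Cnp*, a phosphodiesterase that keeps the cytoplasmic channels of the sheath open, had 178 CPM (148–213), 175 CPM (142–213) and 166 CPM (131–207) in the C57BL/6J, *Nav1* KO and BTBR libraries. *Ermn*, a cytoskeletal protein of mature oligodendrocytes, had 208 CPM (175–245), 263 CPM (222–309) and 259 CPM (215–310), and was higher than in C57BL/6J in both other libraries with intervals of the ratio that just include 1 (0.996–1.61 in *Nav1* KO, 0.970–1.61 in BTBR). *Cldn11*, the claudin of the tight junctions between myelin layers, had 196 CPM (164–232), 266 CPM (225–313) and 150 CPM (117–190). It was highest in the *Nav1* KO library, at 1.36 times (1.07–1.73) the C57BL/6J level, and lowest in the BTBR library. *Aspa*, which releases acetate for lipid synthesis from N-acetylaspartate, had 337 CPM (294–384), 212 CPM (176–254) and 251 CPM (207–301), and was highest in the C57BL/6J library. The *Nav1* KO level of *Aspa* was 0.630 (0.50–0.791) of that in C57BL/6J and the BTBR level was 0.744 (0.59–0.936).

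**Figure D1:**
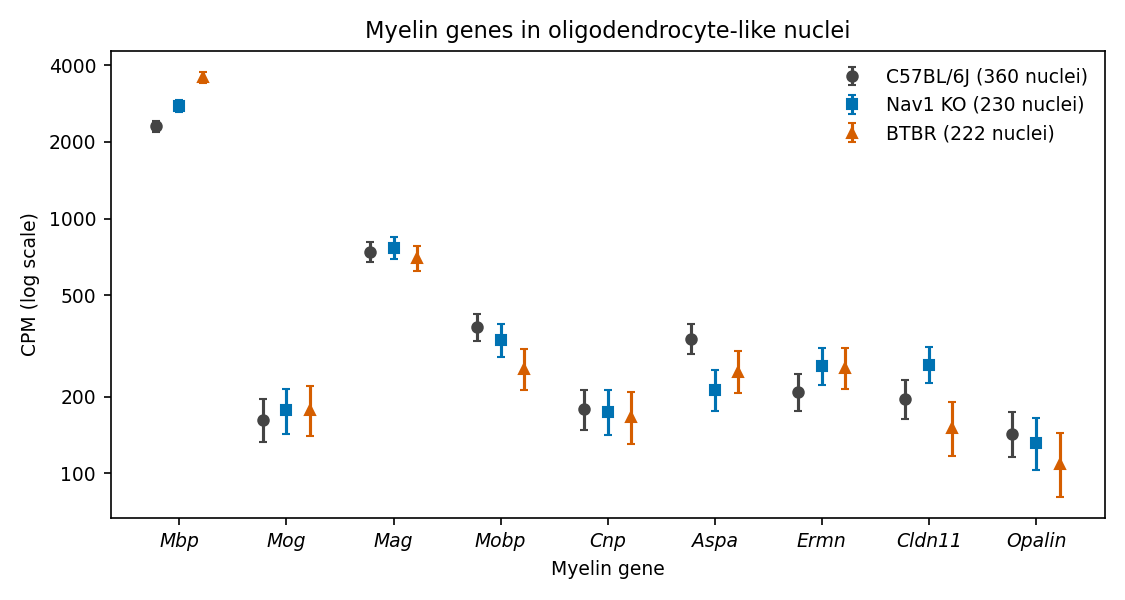
Level of each myelin gene in oligodendrocyte-like nuclei (CPM, log axis) in the C57BL/6J, *Nav1* KO and BTBR libraries, with bars for 95% exact Poisson intervals that cover counting error only. *Mbp* stands at 2298, 2767 and 3584 CPM, *Aspa* is highest in C57BL/6J at 337 CPM, and the points of *Mog*, *Mag* and *Cnp* overlap.

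A ratio of at least 1.5 in either direction was reached by few of the 9 genes. Between *Nav1* KO and C57BL/6J, 0 of 9 were at least 1.5-fold higher, against 9.72% of the 8144 genes compared, and 1 of 9, *Aspa*, was at least 1.5-fold lower, against 16%. Between BTBR and C57BL/6J, 1 of 9, *Mbp*, was at least 1.5-fold higher, against 14.6% of 7941 genes, and 0 of 9 were lower, against 12.3%. Between BTBR and *Nav1* KO, 0 of 9 were higher, against 16.7% of 7450 genes, and 1 of 9, *Cldn11* at 0.565 (0.418–0.757), was lower, against 8.86%. The median ratio of the 9 genes was 1.04, 0.931 and 0.949 in these 3 comparisons, and that of all genes compared was 0.937, 1.02 and 1.10. The first 2 comparisons share the C57BL/6J library.

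Under 12 other settings the BTBR ratio of *Mbp* ran from 1.21 to 1.76 and the *Nav1* KO ratio of *Aspa* from 0.550 to 0.710, so that their directions held but not every call at 1.5-fold. The *Nav1* KO ratio of *Mbp* was 1.02 without the nuclei of the highest doublet scores and 0.840 with coarser clusters, and that of *Cldn11* was 1.14 and 0.933, so that neither direction held under every setting.

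Transcripts of neurons were present in the oligodendrocyte-like nuclei and differed between libraries. All 5 listed neuron markers were detected, and they summed to 27087 CPM in the C57BL/6J, 20300 CPM in the *Nav1* KO and 24643 CPM in the BTBR library, against 39940 to 46266 CPM in neurons. When the 10% of these nuclei with the highest neuron marker CPM in each library were left out, a choice made after seeing the data, 0 of the 9 genes were 1.5-fold higher in BTBR than in C57BL/6J and 2 were at least 1.5-fold lower. The share of all genes at this fold is given only with all nuclei, at 14.6% higher and 12.3% lower. These numbers are therefore not read as a result about the 9 genes.

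Another 50 genes known from myelin or the oligodendrocyte lineage were listed, and 46 had enough counts to compare in these nuclei. Of these, 6 were at least 1.5-fold higher and 1 lower in *Nav1* KO than in C57BL/6J, with a median ratio of 1.07. In BTBR 7 were higher and 5 lower than in C57BL/6J, with a median of 1.02. In BTBR against *Nav1* KO 3 were higher and 9 lower, with a median of 0.975. Over all genes compared, 9.72% were higher and 16% lower in the first of these comparisons. In the second these shares were 14.6% and 12.3%, and in the third 16.7% and 8.86%. The numbers of listed genes called are given beside these shares and were not tested against them. *Nkx6-2*, a homeobox factor of the lineage, had 38.6 CPM in the C57BL/6J, 79.2 CPM in the *Nav1* KO and 118 CPM in the BTBR library, and was lowest in C57BL/6J. *Tcf7l2*, a factor of newly formed oligodendrocytes, had 41.5, 117 and 43.6 CPM, and was high only in the *Nav1* KO library, at 2.81 times (1.78–4.55) the C57BL/6J level. *Qdpr*, a pteridine reductase, had 114, 124 and 222 CPM, and *Hapln2*, a link protein of the node of Ranvier, had 380, 387 and 591 CPM, both highest in BTBR. Among the low ratios were those of *Olig2* at 0.556 (0.246–1.18) and *Jam3* at 0.716 (0.527–0.965) in *Nav1* KO over C57BL/6J, and of *Pllp* at 0.541 (0.271–1.02) in BTBR over C57BL/6J. In BTBR over *Nav1* KO the lowest ratio was that of *Tcf7l2* at 0.373 (0.214–0.624), and the highest were those of *Qdpr* at 1.79 (1.31–2.47) and *Hapln2* at 1.53 (1.27–1.84).

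In single nuclei thinned to 1000 UMIs, at least 1 of the 9 genes had a UMI in 93.6% (89.3–96.6) of 204 C57BL/6J, 90.1% (84.7–94.0) of 181 *Nav1* KO and 97.2% (93.0–99.2) of 143 BTBR oligodendrocyte-like nuclei. Shallower nuclei were left out of these shares, 156, 49 and 79 in the same order, and without thinning the shares were 99.4%, 100% and 100%. *Mbp* was found in 79.9%, 79.0% and 90.2% of thinned nuclei, *Mag* in 45.1%, 50.8% and 44.8%, and *Opalin* in 13.7%, 17.1% and 9.09%. *Mbp* was thus found in a larger share of BTBR nuclei than of C57BL/6J nuclei, with intervals of 84.1–94.5 and 73.7–85.2 that overlap narrowly. A thinned nucleus held 2.68, 2.85 and 2.56 different members of the 9 on average, and 49.5%, 58.0% and 42.7% of the nuclei held 3 or more.

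Neurons held the same transcripts at far lower levels. The 9 genes summed to 77.8 CPM (74.6–81.1) in the C57BL/6J, 61.0 CPM (58.6–63.6) in the *Nav1* KO and 78.1 CPM (75.2–81.0) in the BTBR library. All 9 were at least 5-fold higher in oligodendrocyte-like nuclei than in neurons in each library, as were 3.0%, 2.98% and 2.86% of all genes compared in the C57BL/6J, *Nav1* KO and BTBR libraries. All of them but *Mbp* were below 10 CPM in neurons, so they entered this comparison only through their level in oligodendrocyte-like nuclei. The number of genes called is therefore not read as a result. The median of the 9 ratios was 85.5, 84.5 and 80.7, while the median over all genes was close to 1 (0.954 to 0.972). Neurons outnumber the oligodendrocyte-like nuclei, and they contributed 27.0%, 25.9% and 26.1% of all counts of the 9 genes, against 37.1%, 31.0% and 24.4% from the oligodendrocyte-like nuclei. Astrocyte-like nuclei contributed another 14.1%, 19.0% and 31.6%, and one of their 2 clusters (1720 nuclei, a median of 3986.5 UMIs) had 35.5% of its nuclei among the highest doublet scores.

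The 9 genes were not lowered in neurons by one common factor. *Cnp* in neurons stood at 4.28% (3.41–5.39) of its oligodendrocyte-like level in the C57BL/6J, 3.26% (2.56–4.18) in the *Nav1* KO and 3.36% (2.57–4.44) in the BTBR library, the highest of the 9 in each. *Mobp* followed in C57BL/6J and *Nav1* KO with 2.62% (2.21–3.12) and 2.38% (1.97–2.87), and had 1.31% (1.01–1.71) in BTBR. *Ermn* had 0.708% (0.491–1.00), 0.364% (0.247–0.525) and 0.521% (0.364–0.734), and its intervals lay below those of *Cnp* in every library. These percents take oligodendrocyte-like nuclei as the reference, and the composition of free RNA was not measured. Whether neurons or another class added to *Cnp* was not tested. *Mbp* had 1.87%, 1.18% and 1.48%, *Mag* 1.08%, 0.705% and 1.06%, and *Mog* 1.25%, 0.66% and 1.00%. The medians over the 9 genes were 1.17%, 1.18% and 1.24%. For the 13 other oligodendrocyte markers the medians were 1.35%, 1.05% and 1.14%, with the highest value at 15.4% to 16.5%, for *Enpp2*, the autotaxin gene.

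**Figure D2:**
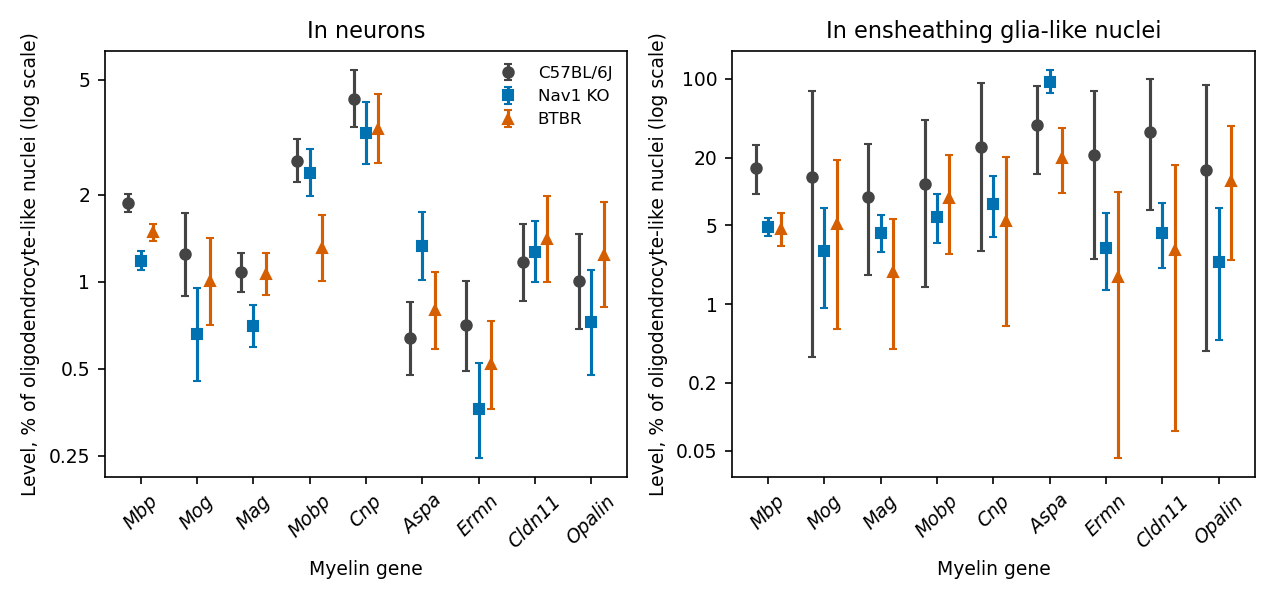
Level of each myelin gene in neurons (left) and in ensheathing glia-like nuclei (right) as a percent of its level in oligodendrocyte-like nuclei of the same library (log axes with different ranges), with 95% exact intervals for counting error. In neurons *Cnp* is highest at 3.26% to 4.28%, and in ensheathing glia-like nuclei *Aspa* is highest, at 94.0% in the *Nav1* KO library.

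In neurons thinned to 1000 UMIs, at least 1 of the 9 genes had a UMI in 6.13% (5.64–6.64) of C57BL/6J, 6.16% (5.68–6.66) of *Nav1* KO and 5.95% (5.48–6.45) of BTBR nuclei, and 3 or more of them in only 5, 4 and 2 nuclei of 9123, 9323 and 9193. Without thinning the shares were 15.9%, 17.2% and 17.8%. The median depth of neurons was 2482, 3107.5 and 2871 UMIs. Classes of glia that make no myelin served as a reference for this share. Astrocyte-like nuclei of the cluster led by *Aqp4* had no UMI of the 9 genes in 93.5%, 90.4% and 94.2% of thinned nuclei, and neurons had none in 93.9%, 93.8% and 94.0%. Microglia-like nuclei had at least 1 of the genes in 21.5% (13.1–32.2), 15.9% (9.72–24.0) and 14.4% (8.30–22.7) of thinned nuclei, and the 9 genes summed to 465, 288 and 375 CPM there. The median depth was 1317 UMIs in these astrocyte-like and 1642 UMIs in microglia-like nuclei. The neuronal shares were below those of microglia-like nuclei in each library. They were below that of astrocyte-like nuclei in *Nav1* KO, at 9.57% (7.04–12.6), and within counting error of it in C57BL/6J, at 6.53% (3.52–10.9), and in BTBR, at 5.77% (3.45–8.96). Shallower astrocyte-like nuclei were left out, 156 of 355 in C57BL/6J. At 500 UMIs, with none left out, the astrocyte-like shares were 7.04% (4.61–10.2), 4.38% (2.88–6.36) and 3.76% (2.17–6.04). Neurons then had 3.51% (3.14–3.90), 3.16% (2.82–3.53) and 3.19% (2.85–3.56), with intervals apart only in C57BL/6J. In C57BL/6J, 4 of 79 thinned microglia-like nuclei held 3 or more of the genes and 45.5% of the UMIs of the 9. The other astrocyte-like cluster, with 610 CPM of the 9 genes, was not part of this reference. The neuronal shares were thus not above those of the glia compared here. Neither expression in neurons nor its absence is read from them, and the source of the transcripts was not tested.

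Between libraries, the neuronal levels did not all follow the oligodendrocyte-like levels. *Mbp* in neurons had 43.0 CPM (40.7–45.5) in the C57BL/6J, 32.8 CPM (31.0–34.6) in the *Nav1* KO and 53.1 CPM (50.7–55.6) in the BTBR library, lowest in *Nav1* KO. It was the only one of the 9 with enough CPM for the comparison over all genes. Its ratio to C57BL/6J was 0.761 (0.703–0.823) in *Nav1* KO, where 3.01% of 9833 genes were at least 1.5-fold higher and 3.95% lower, and 1.23 (1.15–1.33) in BTBR, where 7.09% of 9999 genes were higher and 5.02% lower. Between BTBR and *Nav1* KO it was 1.62-fold higher (1.51–1.74), as were 3.64% of 9886 genes at 1.5-fold or more, while 2.45% were lower. *Mobp* had 9.81 CPM (8.71–11.0), 7.91 CPM (7.05–8.85) and 3.38 CPM (2.80–4.04) from 287, 306 and 120 counts, and its ratio of BTBR to C57BL/6J was 0.344 (0.276–0.427), an interval that lies below the one in oligodendrocyte-like nuclei (0.548–0.86). *Cldn11* was again highest in *Nav1* KO, with 2.29, 3.39 and 2.11 CPM and a ratio to C57BL/6J of 1.48 (1.09–2.02). *Aspa* had 2.15, 2.82 and 2.00 CPM, and its *Nav1* KO ratio of 1.31 (0.951–1.81) in neurons stands against 0.630 (0.50–0.791) in oligodendrocyte-like nuclei. The neurons of the 3 libraries were spread differently over the clusters. Cluster 2 held 1992 C57BL/6J, 2135 *Nav1* KO and 82 BTBR nuclei, cluster 6 held 50, 94 and 1809, and cluster 14 held 36, 597 and 314, and over the 3 libraries the 9 genes summed to 52.6, 63.6 and 117 CPM in these clusters. The part of this in the differences between libraries was not tested over all clusters. Within cluster 0, which held 2544, 2606 and 1871 nuclei, *Mbp* had 43.0, 36.3 and 57.7 CPM and *Mobp* 13.4, 12.4 and 5.08 CPM, in the same order of libraries as over all neurons. *Cldn11* had 0.849, 3.53 and 1.31 CPM there, again highest in *Nav1* KO, and *Aspa* had 1.41, 1.66 and 0.328 CPM from 10, 15 and 2 counts.

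**Figure D3:**
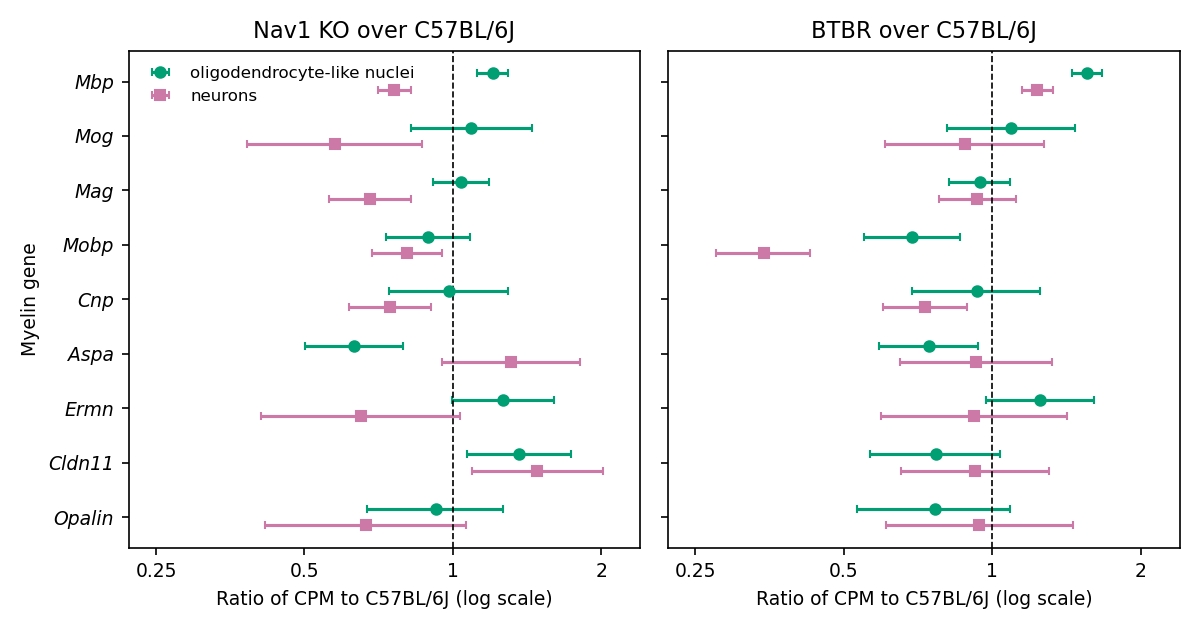
Ratio of the level of each myelin gene to C57BL/6J (log axis) in the *Nav1* KO (left) and BTBR (right) libraries, for oligodendrocyte-like nuclei and neurons, with 95% exact intervals for counting error and a dashed line at 1. In *Nav1* KO *Mbp* lies above 1 in oligodendrocyte-like nuclei (1.20) and below 1 in neurons (0.761), and in BTBR *Mobp* is at 0.688 and 0.344.

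Within a library, some of the 9 genes also differed between neuronal clusters. Cluster 0, with *Dkkl1*, *Rmst* and *Rorb* among its leading genes, and cluster 4, led by *Trbc1*, *Hs3st4* and *Rprm*, are both excitatory, and were chosen for this comparison after their values were seen. *Mbp* had 43.0 against 25.1 CPM in cluster 0 and cluster 4 of the C57BL/6J library, 36.3 against 13.7 CPM in *Nav1* KO and 57.7 against 34.4 CPM in BTBR. *Mobp* had 13.4 against 4.45, 12.4 against 3.43 and 5.08 against 1.5 CPM. Both genes were higher in cluster 0 in all 3 libraries, by 1.72 (1.30–2.29), 2.65 (1.84–3.94) and 1.68 times (1.29–2.21) for *Mbp* and 3.02 (1.61–6.26), 3.61 (1.77–8.56) and 3.40 times (1.06–17.4) for *Mobp*. The 13 other oligodendrocyte markers summed were higher in cluster 0 as well, by 1.38 (1.21–1.58), 1.37 (1.19–1.58) and 1.5 times (1.26–1.80). Not all of the 9 genes went this way. *Cldn11* was lower in cluster 0 in C57BL/6J at 0.262 times (0.0750–0.862), from 6 and 8 counts, and in *Nav1* KO *Aspa* was lower at 0.351 (0.151–0.845) and *Ermn* at 0.155 (0.0240–0.794), from 3 and 5 counts, while the intervals of these genes included 1 in the other libraries. The intervals for *Mag*, *Cnp* and *Opalin* included 1 in all 3 libraries, and so did those for *Mog* in C57BL/6J and BTBR, while in *Nav1* KO it had 12 counts in cluster 0 and 0 in cluster 4.

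**Figure D4:**
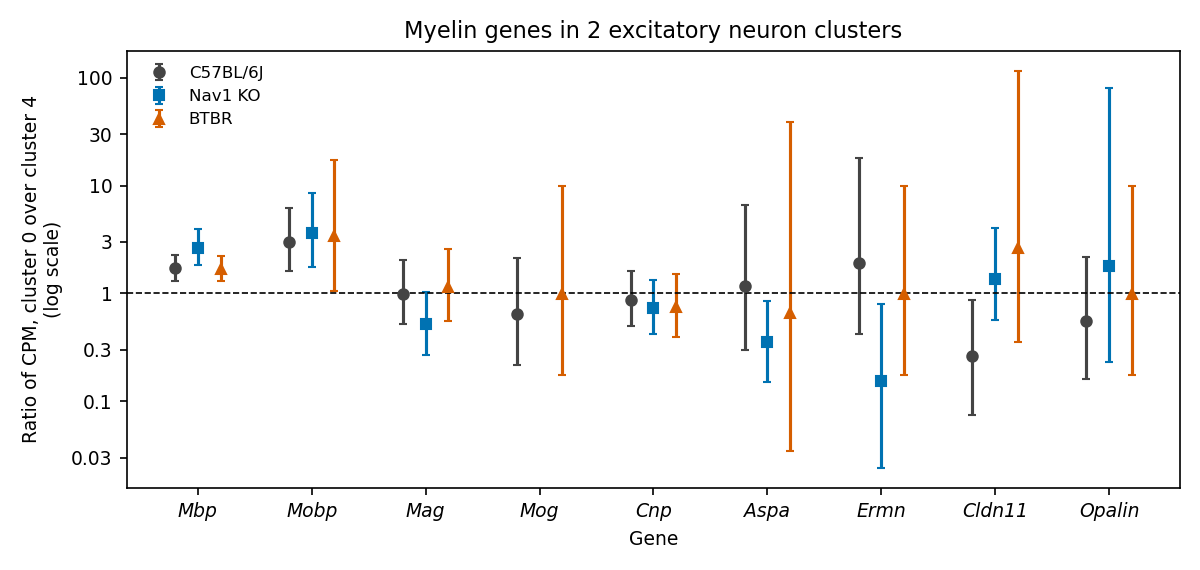
Ratio of CPM in excitatory neuron cluster 0 over cluster 4 (log axis) within each library for the 9 genes, with 95% exact intervals for counting error and a dashed line at 1. *Mbp* and *Mobp* lie above 1 in the 3 libraries, *Cldn11* in C57BL/6J and *Aspa* and *Ermn* in *Nav1* KO lie below it, and *Mog* in *Nav1* KO is not drawn because it had no count in cluster 4.

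In ensheathing glia-like nuclei most of the 9 genes stood far below their oligodendrocyte-like level, and *Aspa* stood apart from the rest in the *Nav1* KO library. The 9 genes summed to 811 CPM (571–1118) from 37 counts in the 24 C57BL/6J nuclei, 427 CPM (387–471) from 413 counts in the *Nav1* KO and 293 CPM (226–373) from 65 counts in the BTBR library. In C57BL/6J 3 of the 24 nuclei held 28 of the 37 counts and 15 nuclei held none, so that this level rests on a few nuclei and its interval, which takes counts as independent, is too narrow. In *Nav1* KO 15 of 398 nuclei held 149 of the 413 counts, and in BTBR 3 of 97 held 19 of the 65. *Mbp* had 373 CPM (217–597), 133 CPM (111–159) and 167 CPM (117–230), which is 16.2% (9.42–26.0), 4.82% (4.00–5.77) and 4.65% (3.26–6.43) of its oligodendrocyte-like level. *Aspa* had 132 CPM (48.3–286), 200 CPM (172–230) and 49.5 CPM (24.7–88.6). In the *Nav1* KO library this was 94.0% (74.4–119) of the oligodendrocyte-like level, while the other 8 genes were between 2.36% and 7.71%. In BTBR it was 19.7% (9.59–36.7) from 11 counts, against 1.74% to 12.4% for the others. In C57BL/6J it was 39.0% (14.2–86.3) from only 6 counts, and its interval overlapped those of the other genes.

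Of the 9 genes, 5 in the C57BL/6J library, 8 in the *Nav1* KO library and all 9 in the BTBR library were at least 5-fold lower than in oligodendrocyte-like nuclei, against 0.995%, 1.21% and 1.94% of all genes compared. In *Nav1* KO and BTBR some of the 9 were below 10 CPM in ensheathing glia-like nuclei and entered only through their oligodendrocyte-like level. Against neurons, 8 of 9 genes compared in C57BL/6J, 2 of 6 in *Nav1* KO and 3 of 5 in BTBR were at least 5-fold higher, against 8.02%, 5.89% and 5.61% of all genes compared. All of them but *Mbp* were below 10 CPM in neurons, so they entered this comparison only through their level in ensheathing glia-like nuclei. In C57BL/6J that level came from 24 nuclei, and the median ratio over all genes was 1.55. These numbers of genes are therefore not read as a result. Thinned to 1000 UMIs, 23.0% (18.7–27.8) of 348 *Nav1* KO ensheathing glia-like nuclei had a UMI of *Aspa* and 8.33% (5.65–11.7) one of *Mbp*, whereas in oligodendrocyte-like nuclei of that library the shares were 22.1% and 79.0%. In neurons of the same library *Aspa* was found in 0.311% of thinned nuclei. Most of this class came from the *Nav1* KO library, so its values rest mainly on that library.

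*Aspa* was also found outside oligodendrocyte-like nuclei in 2 meningeal fibroblast-like clusters, in one of them together with *Cldn11*. In the cluster led by *Slc47a1*, *Mgp* and *Fn1*, *Aspa* had 114, 103 and 110 CPM in the C57BL/6J, *Nav1* KO and BTBR libraries, which is 33.9% (22.8–49), 48.5% (37.3–63.0) and 43.7% (29.8–63.0) of the oligodendrocyte-like level. *Cldn11* had 76.1, 72.9 and 104 CPM in this cluster, or 38.8% (23.5–61.3), 27.4% (20.7–36.0) and 69.3% (45.6–104). Both genes were high in all 3 libraries, while *Mbp* had 6.47%, 3.84% and 2.98%. In a cluster of 942 nuclei led by *Slc6a13*, *Ranbp3l* and *Slc7a11*, *Aspa* had 144, 152 and 61.4 CPM, or 42.7%, 71.8% and 24.5%, but *Cldn11* had no count in C57BL/6J and stood at 3.09% in *Nav1* KO and 13% in BTBR. Thus the first cluster held both genes and the second mainly *Aspa*. A smaller cluster of 274 nuclei, with *Slc6a13*, *Ranbp3l* and *Slc7a11* leading it too, had *Aspa* at 30.0, 27.5 and 24.0 CPM from 5, 13 and 9 counts. Of its nuclei, 77.4% were among the highest doublet scores, at a median of 3383 UMIs, so it is not read as a further kind of fibroblast. That share was 16.5% in the first cluster and 2.65% in the second. The summed ensheathing glia markers had 1450.4 to 2414 CPM in the second cluster and 211 to 343 CPM in the first, and their part in the *Aspa* level was not tested.

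**Figure D5:**
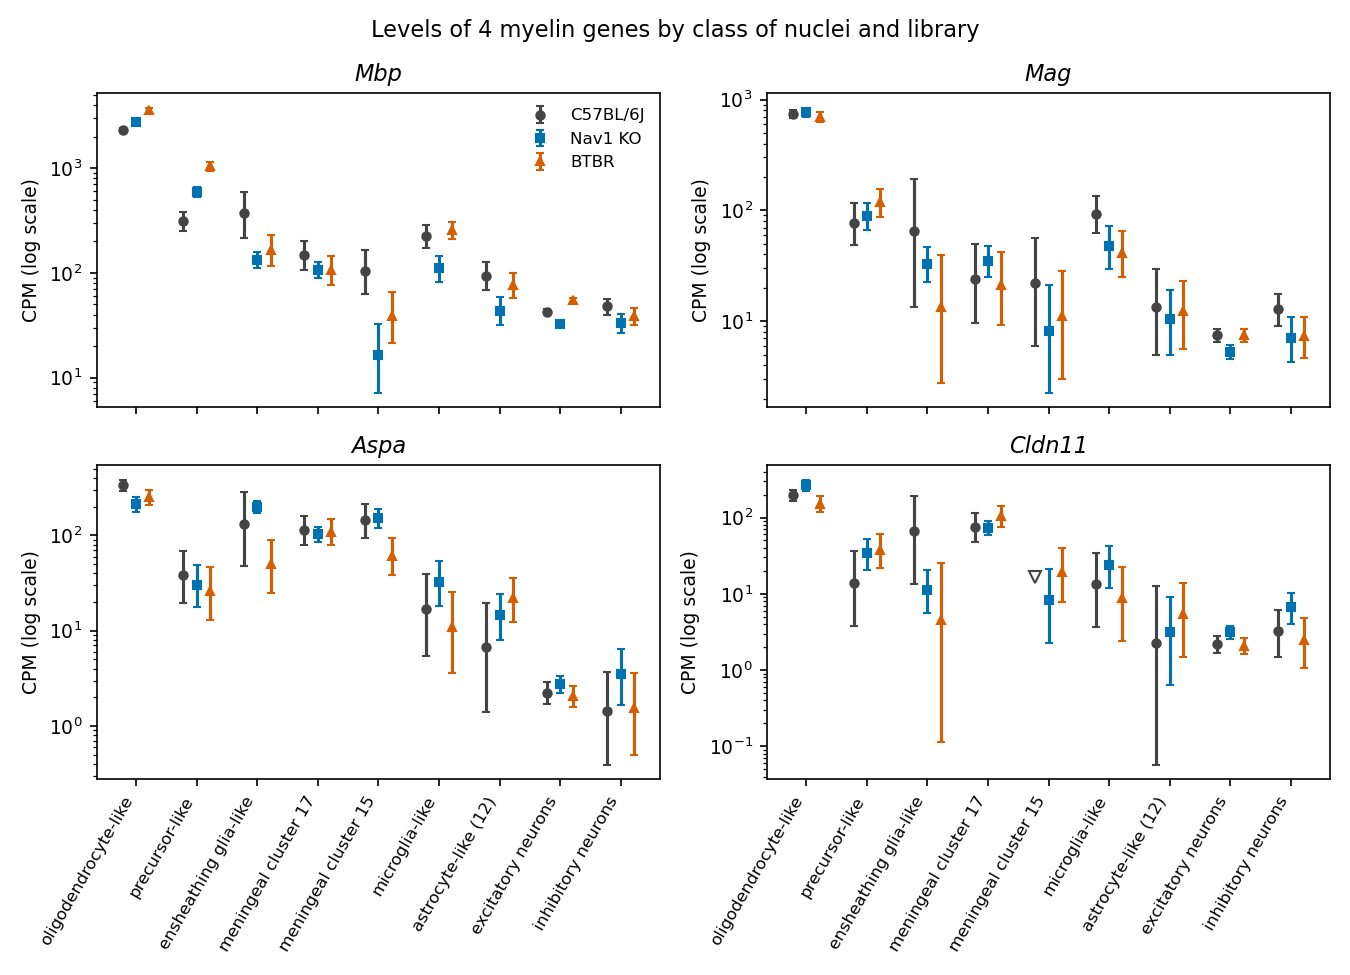
Levels (CPM, log axes) of *Mbp*, *Mag*, *Aspa* and *Cldn11* in 9 classes of nuclei and 3 libraries, with 95% exact Poisson intervals, and an open triangle at the limit of 3 counts where a gene had no count. *Mbp* and *Mag* peak in oligodendrocyte-like nuclei, *Aspa* stays at 114, 103 and 110 CPM in meningeal cluster 17, and *Cldn11* at 76.1, 72.9 and 104 CPM.

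Oligodendrocyte precursor-like nuclei, led by *Cspg4*, *Pdgfra* and *Neu4*, held the 9 genes at 520 CPM in the C57BL/6J, 847 CPM in the *Nav1* KO and 1327 CPM in the BTBR library. *Mbp* was at 313, 597 and 1038 CPM, which is 13.6%, 21.6% and 29.1% of the oligodendrocyte-like level. The levels differed between nuclei with and without a UMI of a precursor marker, although in C57BL/6J the former held 102 of the 148 counts. Nuclei with a UMI of *Pdgfra* or *Cspg4*, which mark precursors, had 457, 399 and 603 CPM of the 9 genes. The 45 C57BL/6J, 66 *Nav1* KO and 58 BTBR nuclei with no UMI of either had 753, 2503 and 4745 CPM, and in them *Mbp* had 524, 1959 and 4098 CPM. *Enpp6*, a marker of newly formed oligodendrocytes, had 115, 184 and 108 CPM in those nuclei and 4.48, 15.9 and 8.57 CPM in the nuclei with a precursor UMI, the last from 3 counts. The nuclei without a precursor UMI were the shallower ones in each library, with medians of 984, 1322 and 1035.5 UMIs against 1189, 1431.5 and 1251, so that a missing UMI does not set them apart as another kind of nucleus. Few nuclei held most of the counts, since 11 of 180 C57BL/6J, 19 of 282 *Nav1* KO and 23 of 265 BTBR nuclei had 3 or more of the genes and held 68.9%, 78.3% and 68.6% of the counts of the 9.

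The cluster led by ribosomal and mitochondrial genes held 2668 C57BL/6J, 435 *Nav1* KO and 1943 BTBR nuclei, and in it the 9 genes summed to 290 CPM (272–308), 856 CPM (778–940) and 209 CPM (193–226). The summed level was highest in *Nav1* KO, where 7 of the 435 nuclei held 180 of the 441 counts (40.8%) and 1 nucleus alone had 74. Without thinning, the nuclei with no UMI of any of the 9 genes were 74.9%, 82.1% and 78.8%. This order follows depth in part, since the *Nav1* KO nuclei were the shallowest, with medians of 1042, 669 and 961 UMIs. Thinned to 1000 UMIs, the share with at least 1 was 20.2%, 27.2% and 15.1% of 1381, 114 and 928 nuclei, highest in *Nav1* KO. At 500 UMIs it was 12.2%, 11.5% and 9.88%. *Mobp* had 32.5, 153 and 10.3 CPM there, which is 8.69%, 46.1% and 4.01% of its oligodendrocyte-like level, and *Mbp* stood at 7.69%, 22.7% and 4.03%. The 5 neuron markers summed to 46131, 31821 and 43440 CPM in the same nuclei.

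Across the 25 clusters and 3 libraries, each of the 9 genes was compared with the mean of the other 8 on a log2(CPM + 10) scale. As a description over these 75 points, which share libraries and depth, Pearson's r was highest for *Mag* (0.948) and *Ermn* (0.929) and lowest for *Cldn11* (0.854) and *Aspa* (0.753). Among the other genes most like the mean of the 9 were *C030029H02Rik* (0.943), *Hapln2* (0.940), *Anln* (0.921) and *Mal* (0.914). Of the 9, *Aspa* followed the others least closely.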

How the data were processed

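The authors deposited 1 filtered matrix of UMI counts per library, made per the labels and the study's methods with Cell Ranger 6.0.0 on mm10 from 10x 3′ libraries. No counts were normalized before deposit. All 15238 BTBR barcodes equal the number of cells given for that library, which was not filtered, and the filter below left 14630 and 14056 nuclei in the other libraries. Kept nuclei (200 or more genes, mitochondrial share below 10%) were clustered in Seurat 5.3.0 (R 4.3.3) from 2000 variable genes without the 9 members, 30 principal components and a resolution of 0.5. Clusters were named from fixed markers. Scrublet (scanpy 1.11.5) called 1, 1 and 0 doublets, so no nucleus was removed for it. Counts were summed per class and library and given as CPM, with exact Poisson, Clopper-Pearson or binomial-split 95% intervals (scipy 1.17.1). Only the binomial-split intervals were run on simulated data. The simulated counts were independent, as these intervals take them to be, so this run cannot show how they do where a few nuclei hold most counts. PCR duplicates are collapsed by UMI, and intervals cover counting error only. A gene entered a comparison over all genes with at least 20 counts in both sides together and 10 CPM in 1. The members and lists were chosen with earlier results of these data known. All 9 members are named, and of 50 other listed genes the 2 highest and 2 lowest ratios per comparison. Some genes that this rule or a cluster's markers would name are not reported here. Like genes were ranked by Pearson's r of log2(CPM + 10) against the mean of the members.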

Additional observations from a re-analysis of the deposited data

Results flagged for a closer look

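In some cases the ratio of a myelin gene to C57BL/6J lay on opposite sides of 1, with intervals that exclude 1, in 2 classes of nuclei. The differences themselves were not tested, since each group is 1 library. *Mbp* in *Nav1* KO over C57BL/6J was 1.20 (1.12–1.29) in oligodendrocyte-like nuclei, 0.761 (0.703–0.823) in neurons and 0.358 (0.215–0.634) in ensheathing glia-like nuclei. *Cldn11* in *Nav1* KO over C57BL/6J was 1.36 (1.07–1.73) in oligodendrocyte-like nuclei and 1.48 (1.09–2.02) in neurons, and 0.173 (0.0457–0.966) in ensheathing glia-like nuclei, where the C57BL/6J level rests on 3 counts in 24 nuclei. *Mbp* in BTBR over C57BL/6J was 1.56 (1.45–1.67) in oligodendrocyte-like nuclei and 1.23 (1.15–1.33) in neurons, and 0.447 (0.245–0.847) in ensheathing glia-like nuclei, where C57BL/6J had 17 counts. Each ratio for ensheathing glia-like nuclei rests on the same 24 C57BL/6J nuclei, of which 3 held 28 of the 37 counts of the 9 genes and 5 had a UMI of *Mbp*. The intervals take counts as independent and leave this out, and no cause was tested.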

How the results depend on the processing

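No comparison has a replicate, so no replicate could be left out and no test decides a call. No paired analysis was possible because each group is 1 library and no result comes from a test. Of the values that answer a comparison, 124 kept within their interval or within 1.5 times their count under an alternative and 57 moved, and for single genes the numbers were 692 and 307. They do not cover the ratios of BTBR to *Nav1* KO or the ratios between libraries in other classes. *Aspa* was lower in *Nav1* KO than in C57BL/6J under all 12 alternatives, and *Mbp* was higher and *Mobp*, *Aspa*, *Cldn11* and *Opalin* lower in BTBR under all 12. *Mbp* was higher in *Nav1* KO under 11 of 12, and at 0.840 with 10 principal components and a resolution of 0.3. The 5 alternatives added after seeing the data are named as added. With 10 principal components and a resolution of 0.3, oligodendrocyte-like nuclei made up 4.52%, 5.19% and 4.49% of C57BL/6J, *Nav1* KO and BTBR nuclei, the median ratio of *Nav1* KO to C57BL/6J fell to 0.733, 3 members were 1.5-fold lower there and 0 higher and 4 lower in BTBR, and the median neuronal levels were 2.28%, 1.99% and 2.90% and the ensheathing glia-like levels 18.7% in *Nav1* KO and 20.4% in BTBR. Removing the 10% highest doublet scores gave 1 member lower in BTBR and neuronal medians of 0.872%, 0.850% and 0.842%. Clustering each library alone gave 0 higher and 2 lower in BTBR and a *Nav1* KO neuronal median of 1.30%. A fold of 2 left 0 members lower in *Nav1* KO and 0 higher in BTBR. Nuclei with at least 1000 UMIs gave 1 member higher and 0 lower in *Nav1* KO. Median-of-ratios scaling gave 0 higher and 1 lower in BTBR. Keeping the members among the variable genes gave a C57BL/6J share of 2.75%. A resolution of 1.0 gave 1 lower in BTBR and a C57BL/6J neuronal median of 1.65%, and a limit of 5% mitochondrial counts gave 1 lower in BTBR and a *Nav1* KO neuronal median of 1.32%. Of the added alternatives, the mean of single-nucleus CPM gave 1 lower in BTBR, neuronal medians of 0.755%, 0.878% and 0.785% and an ensheathing glia-like median of 2.88% in *Nav1* KO. Neurons without nuclei that hold 3 or more members had medians of 0.820%, 0.955% and 0.792%. Relative to the 13 other oligodendrocyte markers of the same nuclei the neuronal medians were 46.7%, 57.6% and 53.6%, by construction on another scale, and the ensheathing glia-like medians 19.9% in *Nav1* KO and 22.0% in BTBR. The ensheathing glia-like median of the C57BL/6J library, 16.2% from 24 nuclei, ran from 5.99% with the mean of single-nucleus CPM to 45.7% relative to the 13 other markers, all within its wide counting interval, and could not be computed with that library clustered alone. Leaving out the oligodendrocyte-like nuclei with the most neuron marker counts gave 0 higher and 2 lower in BTBR. The share with a UMI of any member depends on depth, with 87.5%, 83.5% and 86.9% of oligodendrocyte-like nuclei and 3.51%, 3.16% and 3.19% of neurons at 500 UMIs, and 99.4%, 100% and 100% and 15.9%, 17.2% and 17.8% without thinning. Without a filter on low counts the same numbers of members were called, but 14.3% and 18.1% of genes were higher and lower in *Nav1* KO and 15.9% and 13.8% in BTBR. For the other alternatives the share of all genes called is not given. Their numbers of members called thus show only that the calls depend on the setting, and are not read as results about the members. Beyond the scale and depth named here, the cause was not tested.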

Other observations

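The barcodes that the filter removed held the 9 genes at higher levels than the kept nuclei. There were 772 such barcodes in the C57BL/6J, 567 in the *Nav1* KO and 461 in the BTBR library, with 30.5%, 22.4% and 25.1% mitochondrial counts. In them the 9 genes summed to 1890.4 CPM (1808–1975), 1322 CPM (1256–1389) and 1374 CPM (1299–1453), against 218, 179 and 217 CPM over all kept nuclei, and *Mbp* alone had 1449, 989 and 1148 CPM. The levels were thus higher in removed barcodes in all 3 libraries, and they were highest in C57BL/6J.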
